A study of Sus scrofa with 7 samples.

Results

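The 10 genes LOX, LOXL2, LOXL3, LOXL4, SERPINH1, PCOLCE, P4HA1, P4HA2, PLOD1 and PLOD2, which fold, modify, trim and crosslink collagen, were followed in pig heart muscle after a myocardial infarction. They were chosen by name from the 20653 genes of the table, and where a gene has several transcript rows, that of the largest mean was used. All 10 passed the filter on low values, and the lowest mean among them, that of LOXL4, was 110 normalized read counts over the 7 libraries. RNA came from the anteromidventricular myocardium of male farm pigs, 14 weeks after a left circumflex (LCX) infarction. Every animal was treated with AAV5, an adeno-associated virus vector. The vector held the luciferase reporter in the 3 libraries labelled hrLuc. In the 4 labelled S100a1 it held human S100A1, whose protein binds calcium in heart muscle cells. There was no group without a vector or without an infarction. The sources used here do not give the age of the animals, the promoter of the transgene or which cells took up the vector. By their titles, the 7 libraries are 7 pigs.

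Collagen chains are assembled in the endoplasmic reticulum, where prolyl hydroxylases stabilise the triple helix, lysyl hydroxylases prepare lysines for crosslinking, and a dedicated chaperone holds the folded procollagen until it leaves. Outside the cell the propeptides are cut off, and lysyl oxidases oxidise lysines so that neighbouring molecules become covalently joined. In the heart this work is done mainly by fibroblasts, and after an infarction it builds the scar and stiffens the surviving muscle.

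The libraries held 28679324 to 38409552 reads with 1 row kept per gene, and 15661 genes had enough reads to be tested. Titin mRNA (TTN) took 7.97% to 11.4% of the normalized counts of a library. Markers of heart muscle cells summed to between 4269930 and 5782010 normalized counts, and none of the 7 analysed was at 0 in any library. Pig S100A1 had 7718 ± 1298 normalized counts in the hrLuc libraries (SD, n = 3) against 5933 ± 1064 in the S100a1 libraries (SD, n = 4), and the sources used here do not say whether human transgene reads were counted, so the labels could not be checked with it. Normalized counts are read counts divided by 1 size factor per library. Fold changes are S100a1 over hrLuc on the log2(value + 0.5) scale, given with their standard error. The adjusted p is from limma with Benjamini-Hochberg adjustment over the 15661 genes. Levels of different genes are not compared, because transcript lengths were not used here. In bulk tissue, fewer cells of a type and less RNA per cell cannot be told apart.

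None of the 10 genes passed the threshold of 0.05 for the adjusted p in limma, where 0.0128% of all tested genes did. On the recovered whole reads 0 of the 10 passed in edgeR (0.0128% of all tested genes), DESeq2 (0.568%) and limma-voom (0%), and 0 of the 10 in the authors' deposited table (0.661% of its genes). At an unadjusted p under 0.05 there was 1, SERPINH1, which was lower in S100a1 in each of the 4 tools. In limma there were 2 with no filter on low values. There were also 2 without S100a1 replicate 2, S100a1 replicate 3 or hrLuc replicate 2. At that level 4.57% of all tested genes were lower in limma (8.26% in either direction), 3.96% in edgeR, 3.97% in DESeq2 and 3.84% in limma-voom. In sign, 9 of the 10 had a negative log2 fold change, against 56.5% of all tested genes, and 8 of 10 did under median centring, quantile normalization, edgeR, DESeq2 and limma-voom, where P4HA1 was positive. The median log2 fold change of the 10 was -0.17, against -0.024 over all tested genes. Leaving out hrLuc replicate 1 gave -0.11, leaving out S100a1 replicate 1 gave -0.11, and leaving out S100a1 replicate 4 gave -0.28. In the first and second of these fits 7 of 10 were negative. The members were chosen with results of these data known, so these counts are descriptions of the set.

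**Figure D1:**
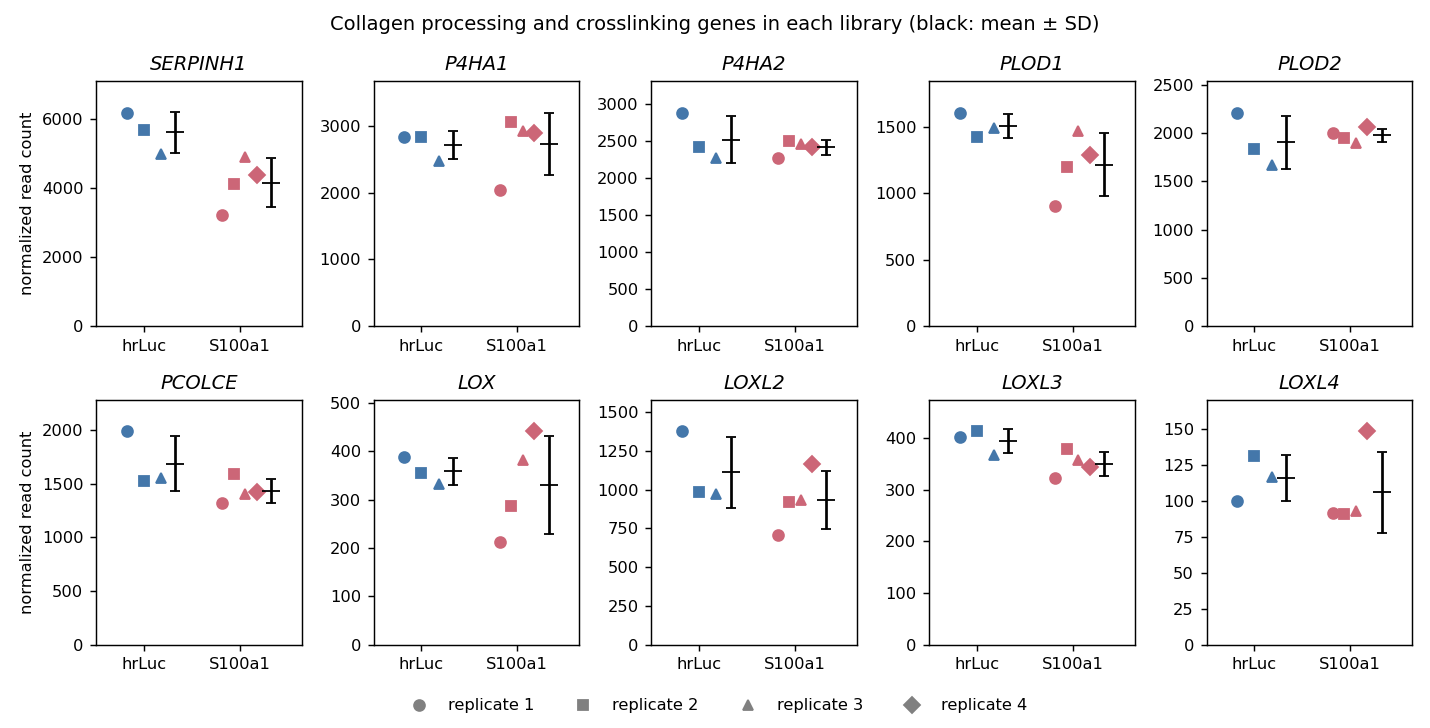
Normalized read counts (vertical axes, each from 0) of the 10 genes in the 3 hrLuc libraries (blue) and the 4 S100a1 libraries (red), with the replicate shown by the symbol and the mean ± SD in black. For SERPINH1 the groups do not overlap, and in 7 of the 10 panels S100a1 replicate 1 (red circle) is the lowest of all libraries.

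**Figure D2:**
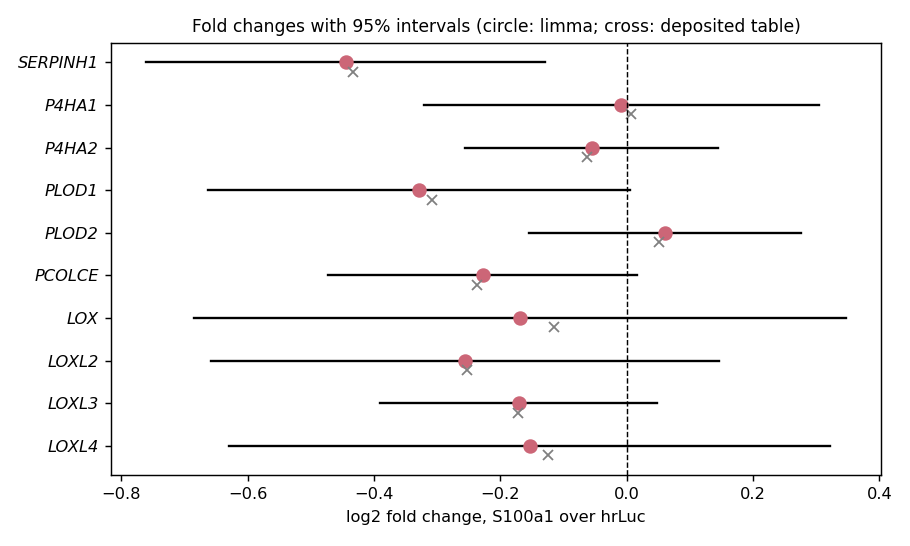
Log2 fold changes of S100a1 over hrLuc (horizontal axis) for the 10 genes, with limma's estimate as a circle, its 95% interval as a line, and the estimate of the authors' deposited table as a cross. The interval of SERPINH1 lies below 0, from -0.76 to -0.13, and the other 9 include 0.

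SERPINH1 encodes HSP47, the endoplasmic reticulum chaperone that binds folded procollagen and has collagens as its main clients. The gene lies on chromosome 9 from 9782939 to 9794485 of Sscrofa11.1. Its normalized counts were 6175, 5683 and 4974 in hrLuc replicates 1 to 3 and 3210, 4114, 4908 and 4383 in S100a1 replicates 1 to 4. Every S100a1 library was below every hrLuc library, although S100a1 replicate 3, at 4908, came close to the lowest hrLuc value of 4974. Of all tested genes, 5.31% had groups separated in this direction and 9.27% in either. The means were 5610 ± 604 (SD, n = 3) and 4154 ± 710 (SD, n = 4), so that S100a1 was at -0.44 ± 0.14 on the log2 scale. The unadjusted p was 0.0111 and the adjusted p was 0.535 (limma). The exact two-sided permutation test over the 35 splits gave p = 0.0571, where the smallest possible p is 0.0286. The 95% interval of the fold ran from 0.590 to 0.914. With each library left out in turn the log2 fold change stayed between -0.53 and -0.33 and the adjusted p between 0.455 and 0.927 (limma). The authors' deposited table gave -0.43 (adjusted p = 0.169). SERPINH1 overlaps a long noncoding RNA, LOC102161477, which was not analysed here.

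The prolyl hydroxylase subunits showed little difference in mean. P4HA1 and P4HA2 encode alternative catalytic alpha subunits of collagen prolyl 4-hydroxylase, the enzyme whose product, hydroxyproline, keeps the triple helix stable at body temperature. P4HA1 (chromosome 14, 75827207 to 75919121) had normalized counts of 2836, 2841 and 2473 in hrLuc replicates 1 to 3 and 2040, 3057, 2928 and 2890 in S100a1 replicates 1 to 4. All the S100a1 libraries but replicate 1 lay above every hrLuc library, and replicate 1 lay below them all. The log2 fold change was -0.0085 ± 0.14 (adjusted p = 0.988, limma), and without S100a1 replicate 1 it was 0.13 (adjusted p = 0.840, limma). P4HA1 overlaps NUDT13. With all libraries the 95% interval of the fold ran from 0.800 to 1.23.

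P4HA2 (chromosome 2, 134502210 to 134595444) ranged from 2266 to 2877 normalized counts in hrLuc and from 2271 to 2503 in S100a1, and the groups overlapped. Its log2 fold change was -0.055 ± 0.088 (adjusted p = 0.874, limma), with a 95% interval of the fold from 0.837 to 1.11. P4HA2 had 15 transcript rows with 7 distinct sets of values, and the difference depended on the row. It was -0.15 in both the middle and the lowest row (adjusted p = 0.750 and 0.744, limma). The share of reads of the kept row that were absent from the lowest row was 23.0%, 24.3% and 29.3% in hrLuc replicates 1 to 3 and 36.8%, 26.6%, 29.0% and 29.3% in S100a1 replicates 1 to 4. The share was highest in S100a1 replicate 1, and the groups overlapped. P4HA2 overlaps PDLIM4 and SLC22A4 in position, and whether reads of those genes stand in some of its rows was not tested. Their log2 counts had a Pearson r with those of the kept row of 0.13 (PDLIM4) and -0.51 (SLC22A4).

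Neither of the lysyl hydroxylases PLOD1 and PLOD2 passed the test. PLOD1 hydroxylates lysines within the collagen helix. It lies on chromosome 6 from 71987938 to 72019712. Its normalized counts were 1607, 1426 and 1491 in hrLuc replicates 1 to 3 and 905, 1202, 1473 and 1291 in S100a1 replicates 1 to 4. S100a1 replicate 3 was within the hrLuc range and the other S100a1 libraries were below it. On the log2 scale S100a1 was at -0.33 ± 0.15, with an unadjusted p of 0.0532 and an adjusted p of 0.608 (limma), and it was -0.19 without S100a1 replicate 1.

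PLOD2 hydroxylates lysines of the telopeptides at the ends of collagen, the step that leads to the crosslinks typical of scar tissue. It lies on chromosome 13 from 86402673 to 86513167. Its normalized counts were 2210, 1841 and 1675 in hrLuc replicates 1 to 3 and 1999, 1946, 1901 and 2065 in S100a1 replicates 1 to 4. All S100a1 values lay inside the hrLuc range. The log2 fold change was 0.060 ± 0.095 (adjusted p = 0.872, limma), and the 95% interval of the fold ran from 0.898 to 1.21. Leaving out hrLuc replicate 1 moved PLOD2 to 0.17, and leaving out hrLuc replicate 3 turned its sign (-0.029). Its 3 transcript rows differed by at most 2 reads in any library, so they gave no separate measure of its splice forms. The ratio of PLOD2 to PLOD1 counts, a quantity chosen after its values were seen and not tested, was 1.38, 1.29 and 1.12 in hrLuc replicates 1 to 3 and 2.21, 1.62, 1.29 and 1.60 in S100a1 replicates 1 to 4. S100a1 replicate 3 fell within the hrLuc range of this ratio and the other S100a1 libraries lay above it.

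PCOLCE encodes a secreted glycoprotein that enhances removal of the procollagen C-propeptide by BMP1. It lies on chromosome 3 from 8523455 to 8528749. Its normalized counts were 1987, 1526 and 1550 in hrLuc replicates 1 to 3 and 1319, 1586, 1404 and 1424 in S100a1 replicates 1 to 4. S100a1 replicate 2 lay above 2 of the hrLuc libraries, and the other S100a1 libraries were below all of them. PCOLCE was at -0.23 ± 0.11 on the log2 scale (unadjusted p = 0.0645, adjusted p = 0.614, limma), and it was -0.10 without hrLuc replicate 1. PCOLCE overlaps FBXO24, whose counts were 1.08 to 1.13 times those of PCOLCE in every library, so the counts of these genes can hold the same reads.

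The 4 lysyl oxidases had negative fold changes, none past the threshold. LOX, a copper-dependent enzyme that oxidises lysines of collagen and elastin, lies on chromosome 2 from 125595115 to 125607026. Its normalized counts were 388, 355 and 332 in hrLuc replicates 1 to 3 and 212, 287, 381 and 441 in S100a1 replicates 1 to 4. The S100a1 libraries lay on both sides of the hrLuc range, with the lowest and the highest values of the 7. The highest was 2.08 times the lowest, the widest range among the 10 genes. LOX was at -0.17 ± 0.23 on the log2 scale (adjusted p = 0.845, limma). It was 0.026 without S100a1 replicate 1 and -0.33 without S100a1 replicate 4. The fold had a 95% interval from 0.622 to 1.27. LOX overlaps LOC100525452, described in the table as zinc finger protein 474, whose counts were 2.45 to 2.64 times those of LOX in every library, so these genes too can hold the same reads.

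LOXL2, LOXL3 and LOXL4 are lysyl oxidases with scavenger receptor domains ahead of the catalytic domain. LOXL2 (chromosome 14, 7435861 to 7540699) had 1377, 986 and 975 normalized counts in hrLuc replicates 1 to 3 and 710, 922, 935 and 1168 in S100a1 replicates 1 to 4. S100a1 replicate 4 was the second highest of the 7 libraries and the groups overlapped. The log2 fold change was -0.26 ± 0.18 (adjusted p = 0.699, limma), changing to -0.093 when hrLuc replicate 1 was left out and to -0.13 when S100a1 replicate 1 was. LOXL3 (chromosome 3, 68498114 to 68516829) ranged from 367 to 413 in hrLuc and from 322 to 378 in S100a1. Its log2 fold change was -0.17 ± 0.097 (adjusted p = 0.646, limma), and S100a1 replicate 2 was the 1 library of its group inside the hrLuc range. LOXL3 overlaps HTRA2, whose counts were 0.873 to 1.31 times its own. LOXL3 had 2 transcript rows, and 38.8% to 41.1% of the reads of the kept row were absent from the other. On that other row its log2 fold change was -0.14 (adjusted p = 0.734, limma). LOXL4 (chromosome 14, 109571942 to 109593408) had 99.7, 132 and 117 normalized counts in hrLuc replicates 1 to 3 and 91.7, 91.2, 93.1 and 148 in S100a1 replicates 1 to 4. Except for S100a1 replicate 4, the highest of all 7, the S100a1 libraries were below the hrLuc range. The log2 fold change of LOXL4 was -0.15 ± 0.21 (adjusted p = 0.848, limma), and it was -0.33 without S100a1 replicate 4 and -0.059 without hrLuc replicate 2.

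**Figure D3:**
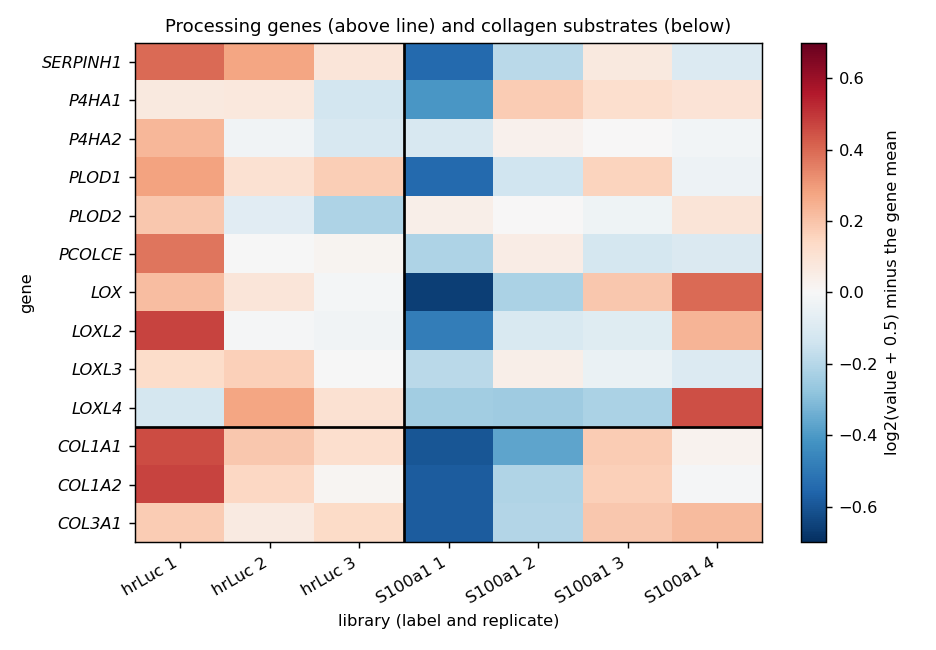
Log2(value + 0.5) minus the gene's mean over the 7 libraries (colour) for the 10 genes and, below the line, the collagen substrates COL1A1, COL1A2 and COL3A1. S100a1 replicate 1 is low in most rows, with a median over the 10 genes of -0.32, and hrLuc replicate 1 is high, with a median of 0.22, whereas PLOD2 and LOXL4 follow other patterns.

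Much of the variation lay between single libraries. S100a1 replicate 1 had the lowest value of the 7 libraries for LOX, LOXL2, LOXL3, SERPINH1, PCOLCE, P4HA1 and PLOD1, and hrLuc replicate 1 had the highest for LOXL2, SERPINH1, PCOLCE, P4HA2, PLOD1 and PLOD2. The share of all tested genes lowest or highest in these libraries was not computed, so this order may not be particular to the 10. The summed level of the 7 analysed fibroblast markers was also lowest in S100a1 replicate 1, at 15478 normalized counts, and highest in hrLuc replicate 1, at 22812. The summed level of the 7 heart muscle markers was highest in S100a1 replicate 1 and lowest in hrLuc replicate 1. Most of that sum was TTN, with 3842610 of 5782010 normalized counts in S100a1 replicate 1 and 2674100 of 4269930 in hrLuc replicate 1. Over all libraries the fibroblast sum ranged from 18482 to 22812 in hrLuc and from 15478 to 20154 in S100a1. In fold change 6 of 7 fibroblast markers were negative, against 56.5% of all tested genes. The count was 3 of 7 without S100a1 replicate 1 and 4 of 7 without hrLuc replicate 1. The sum of 8 markers of activated fibroblasts ranged from 12019 to 13989 in hrLuc and from 10075 to 11371 in S100a1, without overlap. Of the 8 markers 7 were negative, with log2 fold changes from -0.77 (CILP) to 0.078 (POSTN). Only 2 of them, COL8A1 and THBS4, had separated groups on their own. Groups were separated in either direction for 9.27% of all tested genes, and no such share was computed for sums of genes. No fibroblast marker was at 0. The part of these cell markers in the values of the 10 genes was not tested. The smooth muscle and pericyte markers summed to between 16216 and 22053 in hrLuc and between 15346 and 18364 in S100a1, with 6 of 7 negative. The endothelial sums (25268 to 28636 and 24480 to 27153), the macrophage sums (5882 to 8688 and 5263 to 8519) and the adipocyte sums (247 to 711 and 145 to 1122) overlapped between the groups, as did those of T and natural killer cells (404 to 711 and 341 to 423). In sign, 6 of 7 endothelial, 4 of 7 macrophage and 1 of 3 tested adipocyte markers were negative. So were 5 of 6 T and natural killer cell markers, with a median log2 fold change of -0.80, the lowest of the marker lists. Of these, CD5 passed in DESeq2 on the whole reads and in the authors' deposited table (adjusted p = 0.0170). None of them passed in limma, edgeR or limma-voom.

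Among the 10 genes, SERPINH1 and PLOD1 had the most similar pattern across the 7 libraries (Pearson r = 0.95 on the log2 scale), followed by SERPINH1 and LOXL3 (0.85), PCOLCE and P4HA2 (0.85) and LOX and LOXL2 (0.83). PLOD2 was close to unrelated to SERPINH1 (r = 0.0018). These coefficients are descriptions over 7 libraries that share the group difference and the size factors. Outside the set, the genes most like the mean z-score of the 10, among 11748 with at least 100 normalized counts, were GRK6, a G protein-coupled receptor kinase (r = 0.99), SH3GL1 (0.99), SLC39A5 (0.98), RAB8B, a small GTPase (0.98), and CDK2, a cell cycle kinase (0.97). With so many genes searched over 7 libraries, such values are a description of the pattern only. None of these genes passed the test (lowest adjusted p = 0.636, limma, for RAB8B).

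The next question was whether the 10 genes differed between the groups relative to the collagens they act on. The substrates were COL1A1 and COL1A2, the chains of type I collagen, and COL3A1, the chain of type III collagen. COL1A1 had 31883 ± 4105 normalized counts (SD, n = 3) in hrLuc against 23850 ± 5775 (SD, n = 4), at -0.44 ± 0.18 on the log2 scale (adjusted p = 0.576, limma). The fold change of COL1A2 was -0.37 ± 0.18 and that of COL3A1 was -0.22 ± 0.19, and the groups overlapped for all 3 genes. For each library the mean log2 value of the 3 chains was subtracted from that of each gene, and the difference between groups was examined with an exact two-sided permutation test.

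Relative to these collagens, 9 of the 10 genes were higher in mean in the libraries labelled S100a1, and none at an exact p under 0.05. Of all tested genes 92.7% were higher on this scale, so the count of 9 is near the background. The median difference was 0.17 for the 10 and 0.32 for all tested genes, and of the 10 only P4HA1 and PLOD2 lay above that median. With COL3A1 alone as the substrate 6 of the 10 were higher, against 85.1% of all tested genes. The groups overlapped for all 10 genes, where 8.13% of all tested genes had groups separated on this scale and 7.96% were higher in S100a1. SERPINH1 was the exception in sign, with log2 ratios of -2.68 ± 0.078 in the hrLuc libraries (SD, n = 3) against -2.78 ± 0.12 in S100a1 (SD, n = 4; difference -0.10, exact permutation p = 0.286). PLOD1 had a log2 ratio of -4.57 ± 0.089 (SD, n = 3) and -4.55 ± 0.10 (SD, n = 4), a difference of 0.015 (exact permutation p = 0.800), and its sign turned with COL3A1 alone as the substrate (-0.11). The largest differences were those of PLOD2 (0.40, exact permutation p = 0.114), P4HA1 (0.34, exact permutation p = 0.0857, the lowest of the 10) and P4HA2 (0.29, exact permutation p = 0.229). The log2 ratio of PLOD2 was -4.19, -4.21 and -4.31 in hrLuc replicates 1 to 3 and -3.38, -3.74, -4.21 and -4.00 in S100a1 replicates 1 to 4. It was highest in S100a1 replicates 1 and 2, the libraries in which the 3 collagens were lowest, and without S100a1 replicate 1 the difference was 0.25. The other differences were 0.19 for LOXL4, 0.18 for LOX, 0.17 for LOXL3, 0.12 for PCOLCE and 0.088 for LOXL2. They depended on single libraries: LOX was at 0.095 without S100a1 replicate 4, LOXL3 at 0.065 and PCOLCE at 0.0082 without S100a1 replicate 1, and LOXL2 at 0.042 without hrLuc replicate 2 and 0.19 without S100a1 replicate 3. Without hrLuc replicate 1 LOXL4 was at -0.0011, and without S100a1 replicate 3 PCOLCE was at 0.23 and LOXL4 at 0.35. The differences of LOXL2 (-0.038) and PCOLCE (-0.0095) changed sign with COL3A1 alone.

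**Figure D4:**
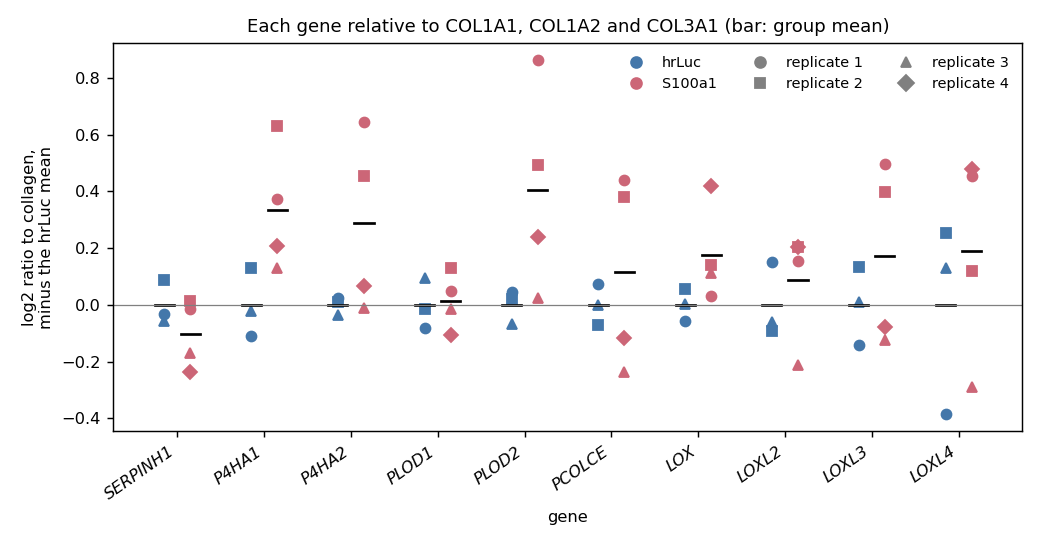
Log2 ratio of each gene to the mean of COL1A1, COL1A2 and COL3A1 in each library, with the hrLuc mean of that gene set to 0 (vertical axis). Blue symbols are hrLuc libraries, red symbols S100a1 libraries, the symbol shape gives the replicate and black bars are group means. PLOD1 has the smallest difference between the group means, 0.015, and the spread of the S100a1 libraries is widest for PLOD2 and LOXL4.

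Of 35 other genes of collagen folding, trimming, export and fibril assembly, all were tested and 27 were negative, their list median being -0.11. None passed in limma, edgeR, DESeq2 or limma-voom. At an unadjusted p under 0.05, 7 were lower and 0 higher (limma). Without hrLuc replicate 1 there were 4 lower and 1 higher, and without hrLuc replicate 2 there were 11 lower. Of all tested genes 56.5% were negative and 4.57% were lower at that level. The 4 with the smallest p were LOXL1, a lysyl oxidase of elastic fibres (-0.49 ± 0.13, adjusted p = 0.514, limma), ADAMTS3, a procollagen N-proteinase (-1.23 ± 0.35, adjusted p = 0.524, limma), FKBP10, a prolyl isomerase that acts with PLOD2 in the endoplasmic reticulum (-0.38 ± 0.12), and FMOD, a collagen-binding proteoglycan (-0.45 ± 0.14). The authors' deposited table gave ADAMTS3 -1.20 (adjusted p = 0.0303). Values for 4 more of the 35, picked by function and not by p, follow. P4HB, the beta subunit of prolyl 4-hydroxylase, was at -0.11 ± 0.078, PLOD3, the third lysyl hydroxylase, at -0.30 ± 0.14, BMP1, the protease that PCOLCE enhances, at -0.16 ± 0.14, and PCOLCE2, a second enhancer, at 0.21 ± 0.12 (adjusted p from 0.617 to 0.761, limma).

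**Figure D5:**
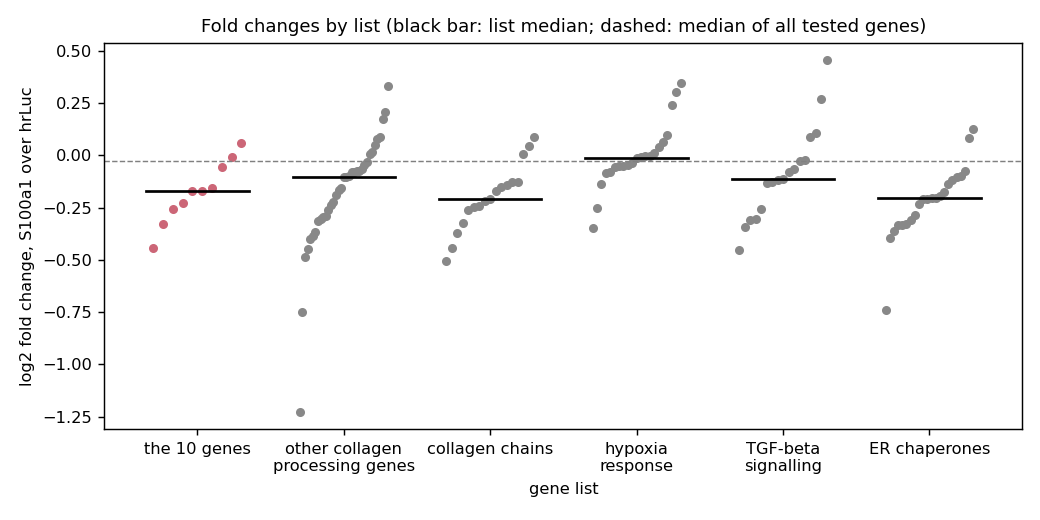
Log2 fold changes of S100a1 over hrLuc (vertical axis) for the 10 genes (red) and for the genes of 5 related lists (grey), with the list median as a black bar and the median of all tested genes, -0.024, as a dashed line. The 10 genes have a median of -0.17, between those of the other collagen processing genes and of the collagen chains (-0.21).

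Of 17 analysed collagen chain genes 14 were negative, with a median of -0.21, and none passed in any of the 4 tools. At an unadjusted p under 0.05, 4 were lower (limma), namely COL8A1 (-0.51), COL6A2 (-0.26), COL1A1 and COL5A1 (-0.25). The count of collagen chains was 2 in edgeR and 2 under median centring. Of 22 chaperones and stress genes of the endoplasmic reticulum, where SERPINH1 and the hydroxylases work, 20 were negative, with a median of -0.21. At an unadjusted p under 0.05, 9 of these were lower (limma), but 3 without hrLuc replicate 1 and 13 without hrLuc replicate 2. Of all tested genes 56.5% were negative and 4.57% were lower at that level. The chaperones and stress genes of smallest p were HYOU1 (-0.40 ± 0.092, adjusted p = 0.462, limma), PDIA4 (-0.36), DNAJB9 (-0.31) and MANF (-0.33). HYOU1 passed in DESeq2 on the whole reads and in the authors' deposited table (adjusted p = 0.0315), and none passed in limma, edgeR or limma-voom.

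Hypoxia induces P4HA1, P4HA2, PLOD2 and LOX in cultured cells, and genes of the hypoxia response were examined beside them. Of 21 tested, 14 were negative in limma, 8 under median centring and 10 in limma-voom, with medians of -0.014, 0.033 and 0.0076. The genes of smallest p were VEGFA (0.24 ± 0.065, adjusted p = 0.514, limma), PFKFB3 (-0.34), HK2 (0.30) and DDIT4 (0.35). VEGFA had an adjusted p of 0.0380 in the authors' deposited table. Of 17 genes of TGF-beta signalling, a main inducer of collagen synthesis in fibroblasts, 13 were negative with a median of -0.11, or -0.051 without S100a1 replicate 1. The genes of smallest p were LTBP1, which tethers latent TGF-beta to the matrix (0.27 ± 0.086), the ligand TGFB3 (-0.45 ± 0.15), THBS1 (-0.31) and SKIL (-0.26). None of either list passed in limma, edgeR, DESeq2 or limma-voom. At an unadjusted p under 0.05 there were 1 of the hypoxia genes and 2 of the TGF-beta genes (limma). Of all tested genes 56.5% were negative and 8.26% reached that level in either direction.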

How the data were processed

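The deposited values are a signal: transcript read counts scaled by a size factor. Divided by the value of 1 read, 100% came out whole within 0.01 read (1 read was worth 0.824 to 1.14 units), so whole reads were recovered. The deposited log2 column, ratio column and p-value column hold the authors' fold change and adjusted p and were only copied. Per the submitters' processing notes, the tools, with no role stated, were DESeq2 1.33.1, FastQC 0.11.8 and R 4.1.2 and the build Sscrofa11.1. No source used here gives the aligner, the counting program or its use of strand. All 63562 rows matched a RefSeq gene.

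The 10 members and all lists were chosen with earlier results of these data known. Some genes stand in more than 1 list, so the lists are not separate evidence. THBS1 is both a processing and a TGF-beta gene, and DCN and LUM are both processing genes and fibroblast markers. POSTN (processing), COL8A1 (collagen chains) and ACTA2 (TGF-beta) are also markers of activated fibroblasts. A gene needed 10 or more normalized counts in 3 or more libraries. With R 4.3.3, limma 3.58.1 with a mean-variance trend was fitted to log2(value + 0.5), two-sided, with Benjamini-Hochberg adjustment. Alternatives used the whole reads: limma-voom, DESeq2 1.42.0 and edgeR 4.0.16, the last calling 2 genes. A planned adjustment of the ratio tests over the 10 was computed but is not reported, because the members were chosen with results known. Genes named by rule were the 10, the 4 of smallest p in each list, 3 substrate collagens and the 5 genes most like the mean z-score. P4HB, PLOD3, BMP1 and PCOLCE2 were picked by function outside that rule. Some cell markers and the genes that overlap the 10 were also named. COL6A1, GSN and MB were not analysed here. Groups come from the titles, and p-values measure the spread between these pigs. The replicate numbers were not used to pair the libraries in the main fit.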

Additional observations from a re-analysis of the deposited data

Results flagged for a closer look

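In 3 of 23 groups of 4 S100a1 libraries examined, 1 library stood apart from the other 3 by Dixon's criterion, which chance meets in about 1 group in 20. The groups are not independent: all use the same 4 libraries, and the ratios use the same genes as the counts. That rate is therefore no test of the count of 3. LOXL4 had 148 normalized counts in S100a1 replicate 4, against 91.2 to 93.1 in the other 3. P4HA1 had 2040 normalized counts in S100a1 replicate 1, against 2890 to 3057. The log2 ratio of LOXL2 to its collagen substrates was -5.24 in S100a1 replicate 3, against -4.87 to -4.82.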

How the results depend on the processing

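No gene of the 10 passed under any of the 21 alternatives, and the median of the 10 stayed negative, from -0.28 to -0.11. Of 200 alternative fold changes of single members 189 kept their sign. Many could not turn: the other filters and the robust prior left every fold change as it was. The other transcript rows did so for genes with 1 distinct row. The count of 189 is therefore not one of separate checks. P4HA1 turned positive in edgeR (0.026), DESeq2 (0.024), limma-voom (0.013), median centring (0.038), quantile normalization (0.0026) and without S100a1 replicate 1 (0.13), hrLuc replicate 1 (0.024) or hrLuc replicate 2 (0.025). With 1 library left out LOX ranged from -0.33 to 0.026 (turning without S100a1 replicate 1), P4HA1 from -0.075 to 0.13, P4HA2 from -0.13 to 0.044 (without hrLuc replicate 1) and PLOD2 from -0.029 (without hrLuc replicate 3) to 0.17. The ratios to collagen turned for LOXL2 (-0.038), PCOLCE (-0.0095) and PLOD1 (-0.11) with COL3A1 alone, for LOXL4 (-0.0011) and PLOD1 (-0.025) without hrLuc replicate 1 and for PLOD1 (-0.023) without S100a1 replicate 2, the ranges with 1 library left out being -0.0011 to 0.35 for LOXL4 and -0.025 to 0.063 for PLOD1. Without 1 hrLuc or S100a1 library the exact test of a ratio cannot go below its own smallest p, which is 0.0667 or 0.10. Over all genes the count of 2 became 89 in DESeq2, 0 in limma-voom, 1 with median centring and 0 with the replicate block, and 0 to 3 with a library left out. The cause was not tested. In the replicate block S100a1 replicate 4 has no partner, so its fold changes are those without that library (SERPINH1 -0.48, adjusted p = 0.759 in limma), and the deviations of same-numbered libraries correlated at -0.022, -0.075 and 0.082, so the numbers do not show a pairing. With 1 library left out the ratio differences ranged from 0.095 to 0.22 for LOX, 0.042 to 0.19 for LOXL2, 0.065 to 0.27 for LOXL3 and 0.0082 to 0.23 for PCOLCE. LOXL4 rests on the fewest reads of the 10, 82 to 170 a library.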
